A study of Mus musculus with 6 samples.

Results

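The genes described here used one parental allele in one clone of immortalised mouse B cells and the other parental allele in another clone. They were chosen from the allelic read counts of the same 6 libraries that are described. A gene entered when it lay on an autosome other than chromosomes 4 and 10 and had at least 20 allelic counts in each library. Its maternal share, maternal counts divided by the total of both alleles and averaged over the 2 libraries of a line, had to be at least 0.9 in one line and at most 0.1 in another. Mt1 and Tsnax were left out by name. The rule took 30 of 7493 genes (0.4%), out of 8480 autosomal genes that met the coverage and 19402 genes in the allele table. Because the shares chose the genes, they are given below as a description, without a test.

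In autosomal monoallelic expression, a cell transcribes a gene from 1 of its 2 copies, and daughter cells keep the choice. The choice is made largely gene by gene, so clones of one genetic background can differ in which copy is used, or can use both. This separates such genes from imprinted genes, where the parent of origin sets the active copy in every clone, and from genes with a sequence difference between strains, where the same strain's allele is stronger in every clone.

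All 3 lines were clones of immortalised B cells from F1 mice of the cross 129S1/SvImJ x CAST/EiJ, and each line is 1 clone. Per the labels, Abl.3 is male, the others are female, and no age is given. Every library came from control cells in growth medium with 1% DMSO, a solvent, collected as live cells on day 2, and each line had 2 library preparation replicates. The p-values below therefore cover the spread of library preparation and not that between clones or cultures. Allelic counts per library ranged from 18362319 to 26881211. All 11 B-lineage markers had at least 1 TPM in every line (an abundance per gene length, scaled to the same total in every library), with summed levels of 12661 to 14009 TPM per library. Single markers differed between lines: Pax5 was at 246 and 207 TPM in Abl.2, 56.2 and 64.0 in Abl.3 and 156 and 165 in Abl.4, and Rag1 at 22.0 and 24.6, 4.39 and 5.34, and 9.84 and 12.9. Of 7 T-lineage markers, only Lck reached 1 TPM, and Cd3g, Cd4 and Thy1 were listed at 0 in all 6 libraries; the list summed to 1.25 to 2.41 TPM. The myeloid list summed to 75.0 to 193 TPM, most of it Lyz2, at 158 and 193 TPM in Abl.2, 96.5 and 73.8 in Abl.3 and 82.5 and 70.8 in Abl.4. Itgam was at 6.89 and 6.74 TPM in Abl.4 and at most 0.97 in the other lines. Adgre1, Elane and Cd14 were listed at 0 in all 6 libraries. The natural killer list summed to 14.2 and 16.2 TPM in Abl.2, 0.85 and 1.05 in Abl.3 and 5.64 and 6.83 in Abl.4, nearly all of it Klrb1c, with Ncr1 and Gzmb listed at 0. Erythroid markers summed to at most 0.97 TPM. The part of these markers in the results below was not tested.

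The genes lay on 14 of 19 autosomes, and 29 were protein coding and 1 a lincRNA. The closest were Zfp623 and Zfp251 on chromosome 15, 0.902 Mb apart, and Slc37a1 and Zfp870 on chromosome 17, 1.53 Mb apart. Annotated spans of 12 of the 30 overlapped another gene, and whether the counting used strand is not given in the sources used here. Zinc-finger genes named Zfp made up 5 of the 30, of 202 Zfp genes tested (2.48%, beside 0.4% of all genes tested). No gene of the immunoglobulin loci (1 tested), T-cell receptor loci (1), Gimap (5), Klr and Clec (3), H2 (16) or Hist (29) groups was among them, nor any of 11 tested imprinted genes.

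Promoter sequences are shown because CpG sites, the places where DNA methylation is laid down in mammals, are the feature of a promoter that methylation acts on. RefSeq promoter windows of 300 bases (250 before and 50 after the start, build GRCm38.p6) were found for 23 of the 30 genes. Map3k20, Myo7a, Emp1 and Slc27a1 had several windows, and the window nearest the GENCODE start was taken. Some windows lay away from that start, by 9432 bases for Slc37a1, 1611 for Plxna2, 386 for Emp1, 260 for Zfp551 and 238 for H1f0. Which start these cells used was not tested. They held a median of 16 CG dinucleotides, from 3 to 39, beside a median of 22 over 5823 of the 7493 tested genes with a window. Windows with a GC content of at least 50% and an observed over expected CG ratio of at least 0.6 made up 11 of 23 (47.8%), beside 74.8% of those 5823. Windows with under 10 CG made up 6 of 23 (26.1%), beside 13.4%. These shares were set side by side without a test and without matching for abundance, which was lower in the switching genes (given below). CG reads the same on both strands, and 24 of the 5823 windows (0.412%) held none. The range is shown by 3 stretches of 150 bases just before the start: Casp1 with the fewest, Map3k20 with the median number and Zfp518a with the most CG in the window among genes whose RefSeq and GENCODE starts coincide. All are on the plus strand of GRCm38, at chr9:5298367-5298516, chr2:72285487-72285636 and chr19:40894555-40894704, and capitals mark each CG.
Casp1: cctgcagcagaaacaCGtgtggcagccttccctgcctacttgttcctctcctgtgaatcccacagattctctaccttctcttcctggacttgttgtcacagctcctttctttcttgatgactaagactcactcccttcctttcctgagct
Map3k20: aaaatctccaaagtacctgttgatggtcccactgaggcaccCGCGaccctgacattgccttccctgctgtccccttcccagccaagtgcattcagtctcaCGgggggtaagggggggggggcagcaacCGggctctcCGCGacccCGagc
Zfp518a: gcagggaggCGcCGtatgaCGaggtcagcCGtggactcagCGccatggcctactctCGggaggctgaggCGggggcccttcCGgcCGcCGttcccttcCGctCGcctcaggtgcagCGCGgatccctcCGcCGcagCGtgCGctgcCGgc
The Casp1 stretch holds 1 CG, that of Map3k20 7 and that of Zfp518a 19. In their whole windows the counts are 3, 16 and 35. No methylation was measured in these samples.

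The switch was close to complete in most genes. Of the 136 gene and library combinations with a strong bias in the line, 45 held no count of the minor allele, and 13 gene and line combinations had none in either library. The lowest share of any library on the maternal side was 0.859 (Emp1 in Abl.3) and the highest on the paternal side was 0.136 (Gnpda2 in Abl.2). The rule itself keeps the libraries of the maternal-expressing and paternal-expressing lines apart. Replicate libraries differed by a median of 0.0129 in share over all genes and lines, and by 0.155 at most, for Ptk2 in Abl.3. The authors' deposited table, which averages replicates and gives confidence limits, had estimates for 64 of the 68 strongly biased combinations. Its fractions come from the same allelic counts as the rule, and the widest of these 64 intervals spanned 0.34.

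**Figure D1:**
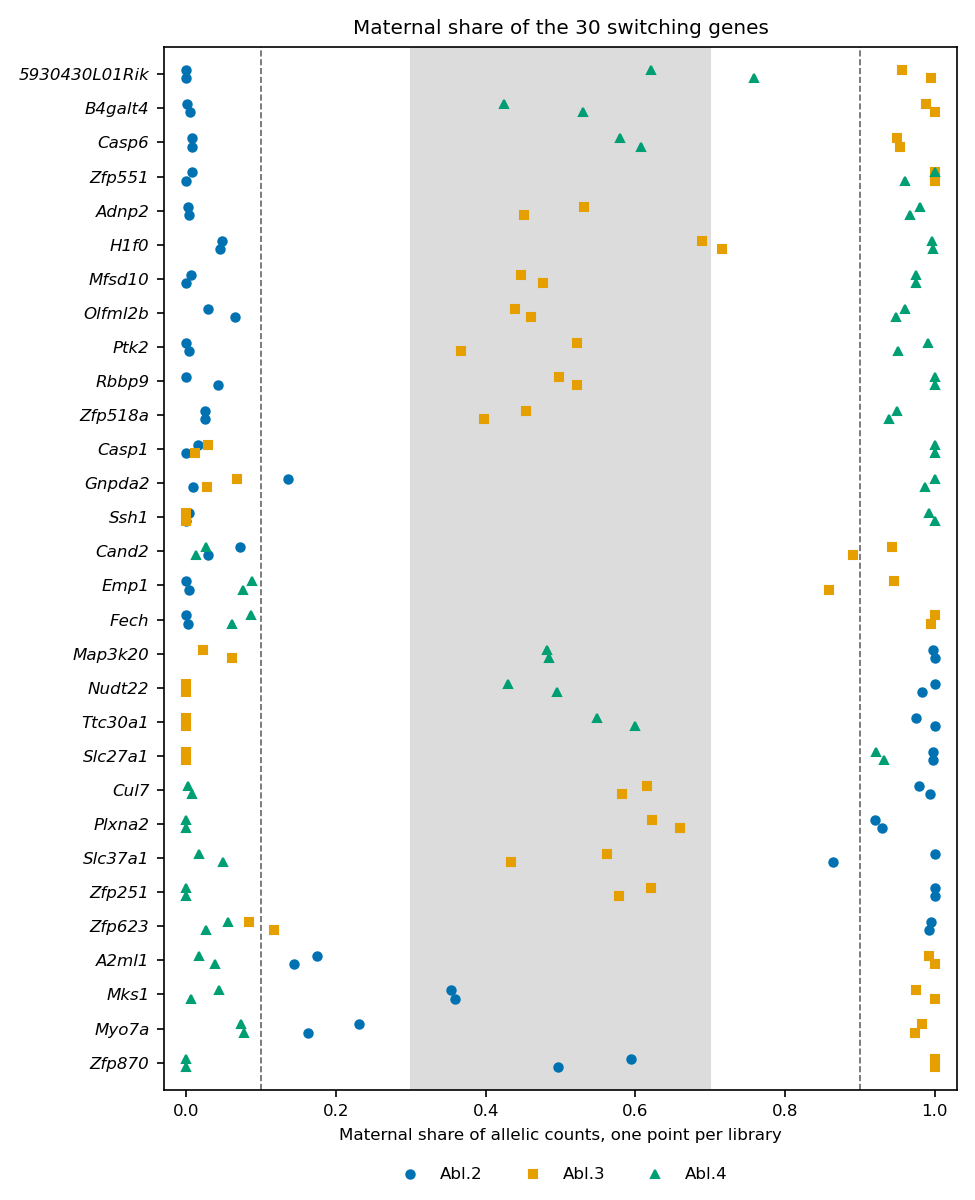
Maternal share of allelic counts on the x axis (0 to 1) for each of the 30 switching genes on the y axis, with 1 point per library, coloured and shaped by line. Dashed lines mark 0.1 and 0.9 and the grey band 0.3 to 0.7; by the rule, maternal-expressing and paternal-expressing lines lie at opposite ends, and most remaining lines lie in the band.

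In Abl.2 the paternal side was used by 17 genes and the maternal side by 9, in Abl.3 by 7 and 11, and in Abl.4 by 12 and 12. Switches joined Abl.2 with Abl.4 for 16 genes, Abl.2 with Abl.3 for 11 and Abl.3 with Abl.4 for 11, where 8 genes count in 2 pairs because all 3 lines were strongly biased. The other 22 genes had a remaining line inside the limits. In 18 of them that line was balanced, with a share from 0.3 to 0.7 (range 0.356 to 0.690, median 0.495). In 4 it was skewed, 1 to the maternal side (H1f0, at 0.702 just past the limit) and 3 to the paternal side (Zfp623, Myo7a and A2ml1). The remaining line was Abl.3 for 12 genes, Abl.4 for 6 and Abl.2 for 4. In the authors' deposited table, the interval of the remaining line held equal shares for 16 of 22 genes. It left them out for the 4 skewed lines. It also left them out for Mks1 in Abl.2 (0.23 to 0.49) and 5930430L01Rik in Abl.4 (0.52 to 0.85), which count as balanced here.

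Several of the genes act in signalling and the cytoskeleton. Ssh1, a phosphatase that activates the actin-severing protein cofilin (chromosome 5, 113937094 to 113993894), was biased in all 3 lines. Ssh1 had maternal shares of 0.00386 and 0 in Abl.2, 0 and 0 in Abl.3, and 0.993 and 1 in Abl.4, over 462 to 778 allelic counts per library. Both Abl.4 libraries were maternal and the other 4 paternal. Map3k20, a stress-activated kinase that senses stalled ribosomes (chromosome 2, 72285637 to 72442610), had shares of 0.998 and 1 in Abl.2, 0.0222 and 0.0605 in Abl.3, and 0.482 and 0.485 in Abl.4, over 270 to 885 counts. Its remaining line used both alleles at nearly the same share in each library. Ptk2, the focal adhesion kinase (chromosome 15, 73205102 to 73423280), had shares of 0 and 0.00372 in Abl.2, 0.522 and 0.367 in Abl.3, and 0.991 and 0.951 in Abl.4, over 147 to 486 counts. Its balanced line had the widest gap between replicates of all the genes, with 95% Wilson intervals of 0.445 to 0.599 and 0.294 to 0.448 (intervals and floors here cover counting error only). Plxna2, a plexin that receives semaphorin signals (chromosome 1, 194618218 to 194816869), had shares of 0.92 and 0.93 in Abl.2, 0.623 and 0.660 in Abl.3, and 0 and 0 in Abl.4. Its maternal line thus kept some paternal counts, while its paternal line had no maternal count in 242 and 255, which allows shares of up to 0.0124 and 0.0118.

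The set held 2 caspases, proteases of cell death and inflammation. Casp6, an effector caspase (chromosome 3, 129901425 to 129914103), had shares of 0.00758 and 0.00772 in Abl.2, 0.95 and 0.954 in Abl.3, and 0.579 and 0.608 in Abl.4. Casp1, the caspase that processes interleukin-1 beta (chromosome 9, 5298517 to 5307265), had shares of 0.0155 and 0 in Abl.2, 0.0290 and 0.0110 in Abl.3, and 1 and 1 in Abl.4. The Abl.4 libraries of Casp1 held 152 and 246 maternal counts and no paternal one. Casp6 was covered by 259 to 1141 counts per library and Casp1 by 69 to 279.

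Transcription factors and chromatin proteins formed another group. Adnp2, a homeobox and zinc-finger protein (chromosome 18, 80126311 to 80151482), had the highest smallest-library coverage, 1007 counts. Adnp2 had shares of 0.00221 and 0.00311 in Abl.2, 0.532 and 0.451 in Abl.3, and 0.980 and 0.967 in Abl.4. Zfp251 (chromosome 15, 76851609 to 76871435) had shares of 1 and 1 in Abl.2, 0.621 and 0.579 in Abl.3, and 0 and 0 in Abl.4. No library of its switching pair held a count of the silent allele, in 377 and 400 counts in Abl.2 and 265 and 246 in Abl.4, which allows minor shares of up to 0.00796, 0.0075, 0.0113 and 0.0122. Zfp518a (chromosome 19, 40894705 to 40917947) had shares of 0.0245 and 0.0249 in Abl.2, 0.454 and 0.398 in Abl.3, and 0.949 and 0.940 in Abl.4. Zfp870 (chromosome 17, 32879219 to 32891642) had shares of 0.594 and 0.497 in Abl.2, 1 and 1 in Abl.3, and 0 and 0 in Abl.4. Like Zfp251, it had no count of the silent allele in any library of its pair.

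The other Zfp genes had no balanced line. Zfp623 (chromosome 15, 75940952 to 75949400) had shares of 0.995 and 0.992 in Abl.2, 0.0842 and 0.118 in Abl.3, and 0.0556 and 0.0263 in Abl.4. Its mean share in Abl.3 was 0.101, just above the limit for a strong paternal bias. Zfp551 (chromosome 7, 12415153 to 12422751) had shares of 0.00714 and 0 in Abl.2, 1 and 1 in Abl.3, and 1 and 0.961 in Abl.4, over 129 to 204 counts. It was paternal in Abl.2 alone of the 3 lines. Zinc-finger genes are a large family of related sequence, and how reads matching several members were counted is not given in the sources used here. H1f0, the linker histone H1.0 (chromosome 15, 79028450 to 79030504), had shares of 0.0479 and 0.0455 in Abl.2, 0.689 and 0.716 in Abl.3, and 0.996 and 0.999 in Abl.4. Its counts ranged from 146 in the first Abl.2 library to 4098 in the first Abl.4 library.

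Enzymes and transporters were another group. B4galt4, a Golgi galactosyltransferase (chromosome 16, 38742264 to 38769049), had shares of 0.000733 and 0.00529 in Abl.2, 0.989 and 1 in Abl.3, and 0.425 and 0.529 in Abl.4. Its counts were 1364 and 1890 in Abl.2, 613 and 462 in Abl.3, and 3111 and 2916 in Abl.4, so the balanced line had the most counts. Mfsd10, a membrane transporter of the major facilitator family (chromosome 5, 34633642 to 34637212), had shares of 0.00577 and 0 in Abl.2, 0.448 and 0.476 in Abl.3, and 0.976 and 0.975 in Abl.4. Fech, ferrochelatase, which puts iron into heme (chromosome 18, 64456550 to 64489066), had shares of 0 and 0.00166 in Abl.2, 1 and 0.996 in Abl.3, and 0.0864 and 0.0613 in Abl.4. Its paternal lines differed: Abl.4 kept 19 and 10 maternal counts, of 220 and 163, where Abl.2 had 0 and 1, of 353 and 601. Gnpda2, a glucosamine-6-phosphate deaminase (chromosome 5, 69573108 to 69592340), had shares of 0.136 and 0.00935 in Abl.2, 0.0677 and 0.0273 in Abl.3, and 1 and 0.987 in Abl.4. Slc27a1, a fatty acid transport protein (chromosome 8, 71568882 to 71587302), had shares of 0.998 and 0.998 in Abl.2, 0 and 0 in Abl.3, and 0.922 and 0.933 in Abl.4. It was paternal in Abl.3 alone, over 73 and 60 counts there and 1085 and 1219 in Abl.2.

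Ubiquitin ligase components, cilium genes and membrane or secreted proteins made up most of the rest. Cand2, which regulates cullin ligases (chromosome 6, 115774538 to 115805557), had shares of 0.0714 and 0.0286 in Abl.2, 0.943 and 0.890 in Abl.3, and 0.0267 and 0.0127 in Abl.4, over 35 to 225 counts. Its span overlaps Rpl32 on the other strand. Emp1, a tetraspan membrane protein (chromosome 6, 135362545 to 135383173), had shares of 0 and 0.00403 in Abl.2, 0.945 and 0.859 in Abl.3, and 0.0874 and 0.0754 in Abl.4. Both genes used the maternal allele in Abl.3 alone, as Fech did, and both had a replicate of Abl.3 below 0.9. Mks1, a protein of the ciliary transition zone (chromosome 11, 87853215 to 87863803), had shares of 0.354 and 0.358 in Abl.2, 0.975 and 1 in Abl.3, and 0.0430 and 0.00629 in Abl.4. The last 9 genes were Cul7, a cullin, the ciliary transport gene Ttc30a1, the motor protein Myo7a, the protease inhibitor gene A2ml1, the serine hydrolase Rbbp9, the secreted olfactomedin-like Olfml2b, the sugar phosphate transporter Slc37a1, the nudix hydrolase Nudt22 and the lincRNA 5930430L01Rik. Their smallest library held 21 counts (Nudt22) to 146 (Cul7), and a count of 0 in that Nudt22 library allows a share of up to 0.143. Ttc30a1 has close paralogues that could share its reads, so its counts are uncertain.

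Values at the edge of the rule were as follows. Just inside were Emp1 (mean share 0.902 in Abl.3), Cand2 (0.917 in Abl.3) and Plxna2 (0.925 in Abl.2). Just outside were Galnt10 (0.897 in Abl.3 and 0.0400 in Abl.2), Isoc2b (0.893 in Abl.2 and 0 in Abl.3) and Vipr2 (1 in Abl.2 and 0.121 in Abl.3). The chosen genes had lower coverage than most of the table: their smallest-library count had a median of 140, beside 744 over all tested genes. Mean abundance ran from 0.88 TPM (Ttc30a1) to 66.4 TPM (Mfsd10), with a median of 8.47 TPM over the 29 genes in the abundance table, beside 28.1 TPM over the tested genes.

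The next comparison asked how total RNA in the remaining line, outside the switching pair, stood against the mean of the pair. The rule did not compare total abundance between lines, but its coverage minimum needed some expression in every library, and the abundance values come from the same libraries. Most genes with both alleles in use had more RNA than in the clones that used 1 allele. Of 16 genes with a balanced remaining line and a mean of at least 1 TPM, 13 were higher there and 2 lower at a Benjamini-Hochberg adjusted p below 0.05 (limma on log2(TPM + 1)), and Zfp518a did not pass. Zfp870 reached 1 TPM through its remaining line alone; counting genes that averaged 1 TPM or more over the pair, a choice made after seeing the data, gave 12 of 15 higher (1 of 1 for Abl.2), 2 lower and a median difference of 1.21. The higher calls were 2 of 2 genes where the remaining line was Abl.2, 7 of 10 for Abl.3 and 4 of 4 for Abl.4. Over all 11003 genes tested, 20.8%, 12.5% and 22.8% were called higher in Abl.2, Abl.3 and Abl.4 against the mean of the others. Called lower were 16.4%, 28.6% and 12.2% of genes. Both libraries of the remaining line lay above the other 4 for 13 of the 16 genes, beside 21.8%, 13.6% and 23.7% of all genes, and below them for 2. The median difference of the 16 was 1.16 on the log2(TPM + 1) scale (range -0.72 to 2.59), beside medians over all genes of 0.04, -0.12 and 0.09. In TPM, the remaining line held a median of 2.46 times the mean of the pair and 1.23 times the sum of the pair. All-gene levels in Abl.3 were shifted in TPM: 30.5% of its calls were higher, against 50.8% after quantile normalisation and 48.4% with edgeR on summed allelic counts. For Abl.4 these were 65.2%, 47.1% and 53.9%. The count of 13 was 13 after quantile normalisation, 13 of 17 genes without the filter on low values, and 15 of 18 genes with edgeR. Less RNA per cell and fewer cells expressing a gene cannot be told apart in these bulk libraries.

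**Figure D2:**
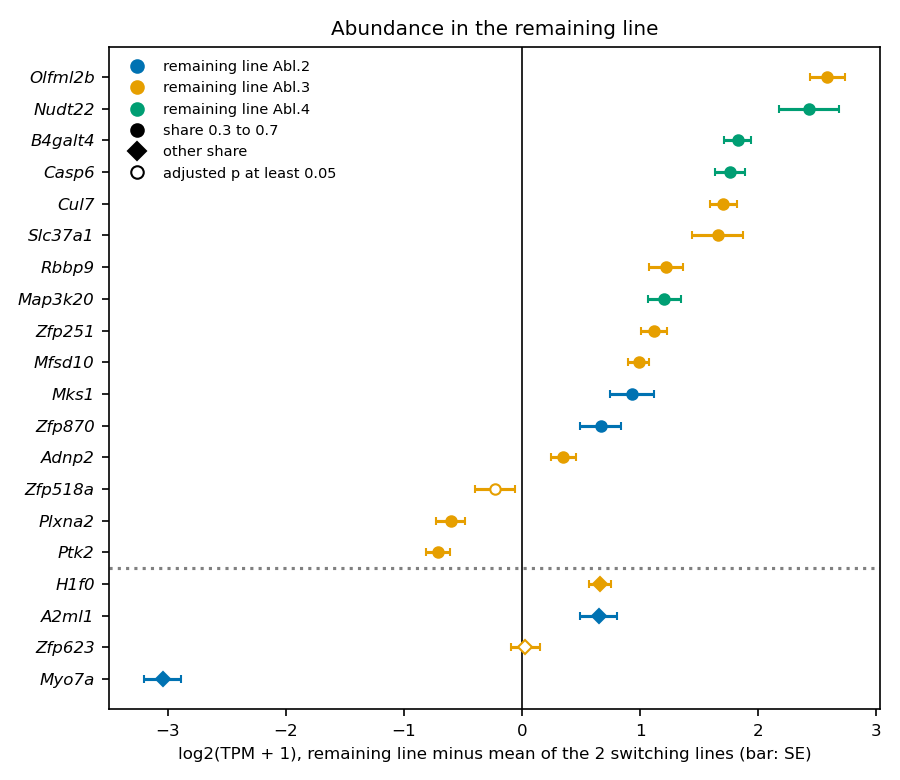
Difference in log2(TPM + 1) between the remaining line and the mean of the 2 switching lines on the x axis, with the standard error from limma, for 16 genes with a balanced remaining line (circles, above the dotted line) and 4 with a skewed one (diamonds). Colours give the remaining line and open symbols an adjusted p of at least 0.05; 13 of the 16 circles lie to the right of 0, from 0.35 (Adnp2) to 2.59 (Olfml2b).

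Individual levels show the pattern. B4galt4 was at 24.1 and 20.9 TPM in Abl.4, where both alleles were used, 10.8 and 12.1 in Abl.2 (paternal) and 2.37 and 2.64 in Abl.3 (maternal). The balanced libraries lay above the other 4, and the difference was 1.83 ± 0.11 (SE; adjusted p = 1.0e-04, limma). Casp6 was at 31.6 and 31.7 TPM in Abl.4, 11.8 and 15.4 in Abl.3 (maternal) and 5.66 and 5.17 in Abl.2 (paternal), a difference of 1.76 ± 0.12 (adjusted p = 1.51e-04). Mfsd10 was at 105 and 93.6 TPM in Abl.3, 57.6 and 50.5 in Abl.4 (maternal) and 45.1 and 46.1 in Abl.2 (paternal). Its balanced level was 0.998 times the sum of the levels in its pair, and the difference was 0.99 ± 0.09 (adjusted p = 3.91e-04). Zfp251 was at 10.1 and 9.51 TPM in Abl.3, 4.71 and 4.46 in Abl.2 (maternal) and 3.42 and 3.44 in Abl.4 (paternal). Here too the groups did not overlap, with a difference of 1.12 ± 0.11 (adjusted p = 5.38e-04) and a level 1.22 times the sum. Map3k20 was at 15.8 and 16.1 TPM in Abl.4, 6.56 and 8.27 in Abl.2 (maternal) and 4.76 and 6.14 in Abl.3 (paternal), a difference of 1.21 ± 0.14 (adjusted p = 0.00121). Mks1 was at 11.7 and 12.1 TPM in Abl.2, 5.93 and 4.34 in Abl.3 (maternal) and 8.06 and 5.26 in Abl.4 (paternal). It was higher by 0.93 ± 0.19 (adjusted p = 0.00955), at 1.01 times the sum.

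Among genes with a balanced remaining line, the widest differences, chosen after their values were seen, belonged to Olfml2b and Nudt22. Olfml2b was at 31.9 and 28.6 TPM in Abl.3, where both alleles were used, against 10.1 and 8.39 in Abl.4 and 2.03 and 1.30 in Abl.2, a difference of 2.59 ± 0.15 (adjusted p = 7.6e-05, limma). Nudt22 was at 38 and 32.1 TPM in Abl.4, against 10.6 and 10.4 in Abl.2 and 1.76 and 4.35 in Abl.3, a difference of 2.43 ± 0.25 (adjusted p = 7.61e-04). Their balanced levels were 2.77 and 2.58 times the sum of the pair. Cul7, Slc37a1 and Rbbp9 were higher by 1.71, 1.66 and 1.22 with adjusted p from 1.37e-04 to 0.0018. Adnp2 (0.35 ± 0.10, adjusted p = 0.0355) and Zfp870 (0.66 ± 0.17, adjusted p = 0.0256) were the smallest of the 13 higher calls on the log2(TPM + 1) scale. The rank of Zfp870 depends on that scale. Its difference was 1.16 with a pseudocount of 0.1, above Mks1 at 1.04, and 0.24 with a pseudocount of 5. With edgeR on summed allelic counts it was 1.29. The call of Adnp2 was lost without either library of Abl.2 or Abl.3, without the second of Abl.4, and with no filter on low values. Zfp870 averaged 0.995 and 0.605 TPM in its pair and passed the filter on low values through Abl.2, at 1.82 TPM. It lost its call without the first library of Abl.2 or of Abl.3 and fell below the filter without the second of Abl.2, and Mks1 lost its call without either Abl.2 library.

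The exceptions were Ptk2, Plxna2 and Zfp518a, all with Abl.3 as the balanced line. Ptk2 was at 5.01 and 5.01 TPM in Abl.3, 12.7 and 13.1 in Abl.4 (maternal) and 5.75 and 6.27 in Abl.2 (paternal), a difference of -0.72 ± 0.10 (adjusted p = 0.00252, limma). Plxna2 was at 2.29 and 2.36 TPM in Abl.3, 6.10 and 6.16 in Abl.2 (maternal) and 2.40 and 2.77 in Abl.4 (paternal), a difference of -0.60 ± 0.12 (adjusted p = 0.00993). The call of Plxna2 was lost without either Abl.3 library and after quantile normalisation, where its difference was -0.36. Zfp518a was at 2.03 and 2.34 TPM in Abl.3, 2.23 and 2.5 in Abl.4 and 2.55 and 3.80 in Abl.2, a difference of -0.23 ± 0.17 (adjusted p = 0.32).

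The level of each allele was set side by side as CPM of the allele table, its counts scaled to the allelic total of the library, without a test. Over the 16 genes, the maternal allele in the balanced line was a median of 0.961 times its level in the line that used it alone (0.158 to 7.80), and the paternal allele 1.23 times (0.321 to 10.1). For Mfsd10, the maternal allele was at 21.7 CPM in the balanced line and 21.8 CPM in the maternal line, and the paternal allele at 25.4 and 20.4 CPM. For Map3k20 the maternal levels were 20.3 and 22.7 CPM, and the paternal levels 21.6 and 14.7 CPM. These 2 genes held nearly the same maternal level with and without the other allele in use. B4galt4 differed, with a maternal allele at 71.6 CPM in the balanced line and 27.8 CPM alone, and a paternal allele at 79.0 and 65.0 CPM. In Cul7 the maternal allele was at 27.4 CPM in the balanced line and 5.96 CPM alone, where the paternal allele was at 18.4 and 22.5 CPM. Ptk2 went the other way, with a maternal allele at 3.53 CPM in the balanced line and 22.4 CPM alone, and a paternal allele at 4.42 and 9.39 CPM. Plxna2 likewise had 7.07 and 24.9 CPM for the maternal allele and 3.98 and 12.4 CPM for the paternal one. Both alleles were also lower in the balanced line for Zfp518a and Adnp2. The maternal and paternal alleles were at 0.535 and 0.447 times their level alone for Zfp518a, and at 0.719 and 0.683 times for Adnp2. Adnp2 was nevertheless called higher there in TPM.

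**Figure D3:**
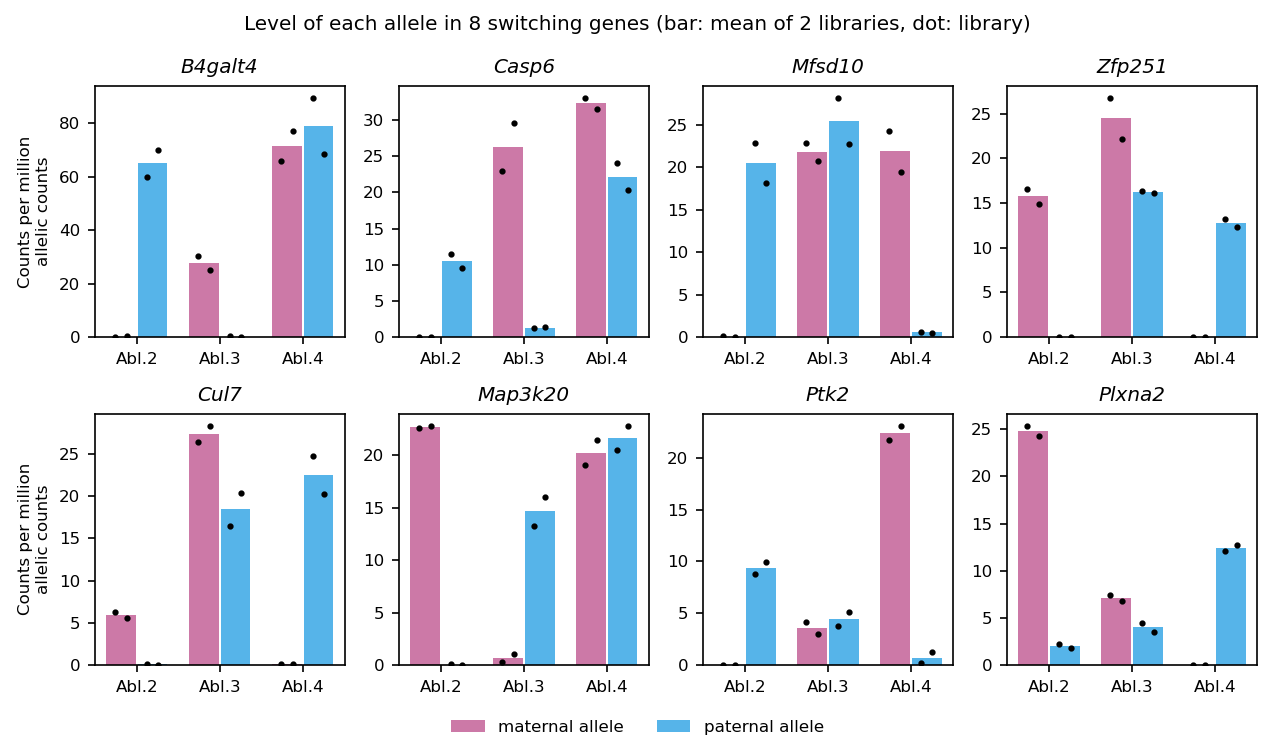
CPM of the maternal and paternal allele, scaled to the library's allelic total, on the y axis (linear, each panel with its own scale from 0) in the 3 lines on the x axis, for 8 switching genes; bars are means of 2 libraries and dots the libraries. Mfsd10 and Map3k20 have maternal bars of similar height with 1 or both alleles in use, B4galt4, Casp6, Zfp251 and Cul7 have their highest maternal bars in the balanced line, and for Ptk2 and Plxna2 each allele is lower there than in the line that used it alone.

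The 4 genes with a skewed remaining line did not share a direction. Myo7a was at 1.34 and 1.15 TPM in Abl.2 (shares 0.231 and 0.162), 17.1 and 12.4 in Abl.3 (maternal) and 22.9 and 19.1 in Abl.4 (paternal), lower by a difference of -3.04 ± 0.16 (adjusted p = 3.8e-05, limma). H1f0 was at 33.4 and 35.0 TPM in Abl.3, 139 and 124 in Abl.4 (maternal) and 2.99 and 2.54 in Abl.2 (paternal). On the log scale Abl.3 was 0.66 ± 0.09 above the mean of the pair (adjusted p = 0.00252), while in TPM it was 0.51 times the mean of the pair, so the sign depends on the scale. A2ml1 averaged 2.065 TPM in Abl.2, 0.39 in Abl.3 (maternal) and 1.76 in Abl.4 (paternal). It was higher by 0.65 ± 0.16 (adjusted p = 0.0194, limma), a call lost without either Abl.2 library and without the second Abl.3 library. Its size was 1.2 with a pseudocount of 0.1, 0.23 with 5 and 1.19 with edgeR on summed allelic counts. Zfp623 had a difference of 0.03 ± 0.12 (adjusted p = 0.874).

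The pair comparison asked whether the line using the maternal allele and the line using the paternal allele held different amounts of RNA. Of 36 gene and pair combinations from 28 genes, 20 passed in limma at an adjusted p below 0.05, 13 with the maternal-expressing line higher and 7 with the paternal-expressing line higher. By pair these were 7 of 9 between Abl.2 and Abl.3, beside 39.8% of all genes tested, 8 of 16 between Abl.2 and Abl.4, beside 33.5%, and 5 of 11 between Abl.3 and Abl.4, beside 38.1%. Of the 28 genes, 18 were called in at least 1 pair. The median size of the difference was 1.38, 0.66 and 0.49 on the log2 scale in these pairs, beside 0.32, 0.28 and 0.31 over all genes. The pairs share lines and are not independent of each other.

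**Figure D4:**
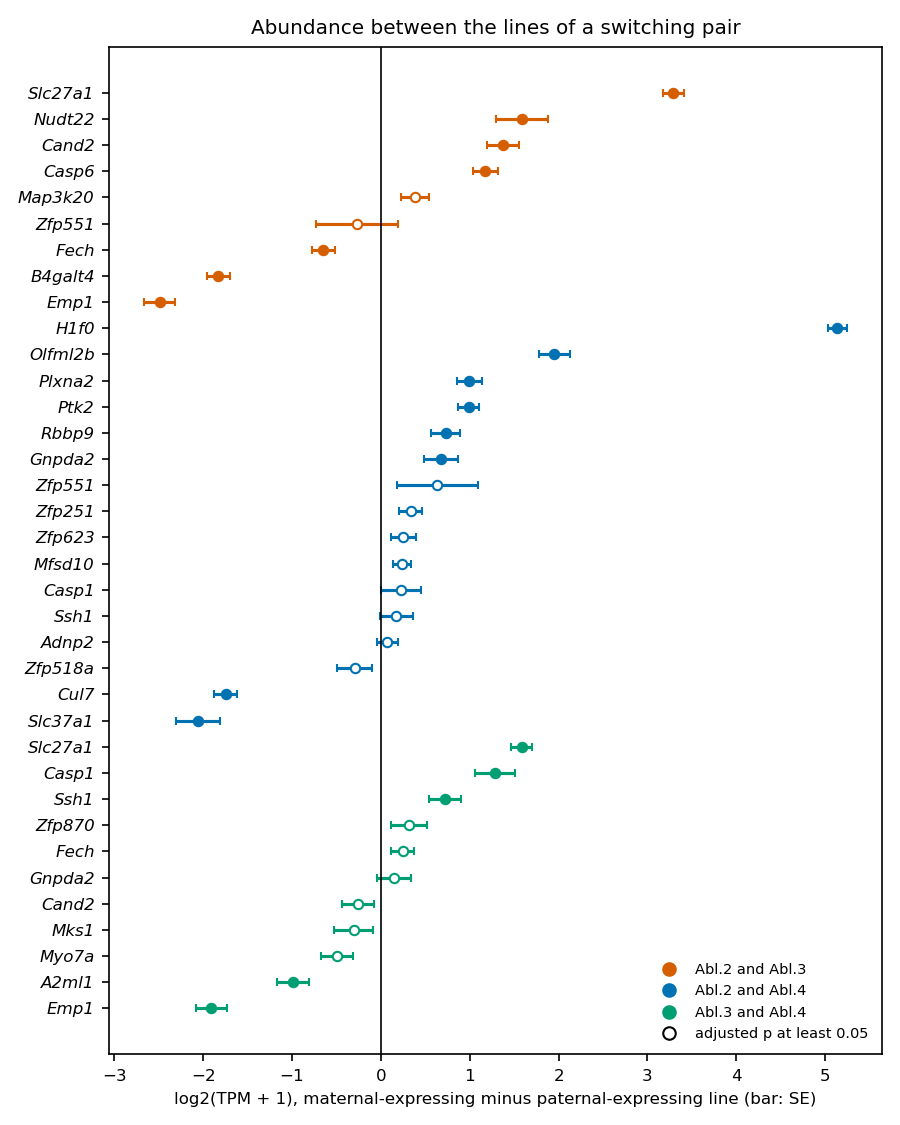
Difference in log2(TPM + 1) on the x axis, maternal-expressing minus paternal-expressing line, with the standard error from limma, for 36 combinations of gene (y axis) and pair of lines (colour). Open symbols have an adjusted p of at least 0.05; 20 are filled, 13 to the right and 7 to the left of 0, with H1f0 at 5.14 the farthest.

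H1f0 differed most, at 131 ± 10.2 TPM (SD, n = 2) in Abl.4 and 2.77 ± 0.318 in Abl.2, by 5.14 ± 0.11 (SE) on the log2 scale (adjusted p = 2.0e-06, limma). Slc27a1 was at 33.5 and 29.5 TPM in Abl.2, 8.98 and 8.92 in Abl.4 and 2.37 and 2.27 in Abl.3. Both lines using its maternal allele were above the paternal one, by 3.29 ± 0.12 for Abl.2 (adjusted p = 1.0e-05) and 1.58 ± 0.12 for Abl.4 (adjusted p = 2.11e-04). Emp1 was the reverse, at 2.09 and 1.42 TPM in Abl.3 (maternal), 14.0 and 14.7 in Abl.2 and 8.31 and 10.3 in Abl.4 (both paternal). Its differences were -2.49 ± 0.17 (adjusted p = 1.24e-04) and -1.91 ± 0.17 (adjusted p = 4.56e-04). Casp1 was at 13.1 and 18.7 TPM in Abl.4 (maternal), 12.1 and 14.5 in Abl.2 and 4.8 and 7.05 in Abl.3 (both paternal). Abl.4 was above Abl.3 by 1.28 ± 0.23 (adjusted p = 0.00624), and its difference from Abl.2 was 0.23 ± 0.23 (adjusted p = 0.477). Fech was at 8.86 and 8.87 TPM in Abl.3 (maternal), 13.8 and 15.1 in Abl.2 and 8.06 and 6.63 in Abl.4 (both paternal), lower than Abl.2 by a difference of -0.65 ± 0.13 (adjusted p = 0.00943) and at 0.25 ± 0.13 from Abl.4 (adjusted p = 0.181), which after quantile normalisation was a call at 0.55.

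Cand2 was at 3.74 and 3.67 TPM in Abl.3 (maternal), 0.95 and 0.68 in Abl.2 and 5.29 and 4.03 in Abl.4 (both paternal). Abl.3 was above Abl.2 by 1.38 ± 0.18 (adjusted p = 0.00175, limma), and its difference from Abl.4 was -0.26 ± 0.18 (adjusted p = 0.295), or 0.08 after quantile normalisation. Ssh1 was at 3.82 and 4.68 TPM in Abl.4 (maternal), 4.25 and 3.09 in Abl.2 and 2.16 and 2.18 in Abl.3, above Abl.3 by 0.72 ± 0.18 (adjusted p = 0.0226). Gnpda2 was at 12.1 and 18.4 TPM in Abl.4 (maternal), 8.68 and 9.28 in Abl.2 and 14.3 and 12.5 in Abl.3, above Abl.2 by 0.67 ± 0.19 (adjusted p = 0.0386). Ssh1 lost its call without either Abl.3 library or the second of Abl.4, and Gnpda2 without any one library other than the first of Abl.4. Rbbp9 lost its call without either Abl.2 library or the second of Abl.4, and Fech without the second library of Abl.2 or either of Abl.3. The calls of Ssh1, Gnpda2 and Rbbp9 were also lost after quantile normalisation, those of Ssh1, Gnpda2 and Fech with edgeR on summed allelic counts, and those of Ssh1 and Gnpda2 with no filter on low values. Zfp551 had TPM far apart within a line, at 3.04 and 0.78 in Abl.2, 1.15 and 1.30 in Abl.3 and 1.94 and 4.91 in Abl.4, and no call in limma. Its allelic counts were 140 and 142 in Abl.2, so the gap there was in TPM and not in these counts. In Abl.4 they were 129 and 204. With edgeR on summed allelic counts its difference between Abl.3 and Abl.2 turned from -0.27 to a called 0.80. B4galt4, Cul7, Slc37a1 and A2ml1 were higher in the paternal-expressing line, by differences of -1.83, -1.75, -2.06 and -0.99. In the maternal-expressing line, A2ml1 averaged 0.39 TPM and Slc37a1 0.985, against 1.76 and 7.195 in the paternal-expressing line. These 2 genes passed the filter on low values through the other lines, and their sizes moved with the scale. A2ml1 was at -1.96 with a pseudocount of 0.1, -0.33 with 5 and -2.12 with edgeR on summed allelic counts. Slc37a1 was at -2.84, -1.02 and -3.1 in the same order. Olfml2b, Nudt22, Casp6, Plxna2, Ptk2 and Rbbp9 were higher in the maternal-expressing line, by 1.95, 1.58, 1.18, 0.99, 0.99 and 0.73. Adnp2, Mfsd10, Map3k20, Zfp251, Zfp518a, Zfp623, Zfp870, Mks1 and Myo7a were not called in their pair. With the replicate number as a block, and with edgeR on summed allelic counts, Myo7a was called at -0.49 and -0.48. Map3k20 (0.56), Zfp518a (-0.66) and Zfp870 (1.13) were called with edgeR, and Zfp251 (0.53) and Zfp870 (0.74) after quantile normalisation. For Adnp2 the lines using opposite alleles were at 11.0 ± 1.31 and 10.4 ± 0.212 TPM (SD, n = 2), a difference of 0.07 ± 0.12 (adjusted p = 0.668).

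The neighbour comparison asked whether the gene next to a switching gene also used its alleles differently in the same pair of lines. Each side's nearest tested gene within 500 kb was taken, which gave 52 neighbours of 29 genes at a median gap of 33.2 kb, with 4 overlapping. Most neighbours used both alleles, but some were one-sided in all 3 lines. Gcat beside H1f0 had maternal shares of 0.945 to 1 in every library. Gm15408 beside 5930430L01Rik had mean shares of 0.0412 to 0.0946, and Lrrc32 beside Myo7a of 0.0342 to 0.184. A small difference between lines therefore does not show that both alleles were used. Over 63 combinations of neighbour and pair, the median size of the share difference was 0.0271. The median of 0.97 for the switching genes follows from the rule that chose them, so the 2 values are not a comparison. The closest switching genes lie 0.902 Mb apart, so no neighbour within 500 kb could meet the switching limits. An allelic difference was called for 19 of 63 (edgeR quasi-likelihood test, Benjamini-Hochberg adjusted p below 0.05). In 17 of them the share changed between the lines in the same direction as that of the switching gene. In 2 it changed in the opposite direction (Rbfa beside Adnp2 and Blnk beside Zfp518a). By pair, 6 of 19 were called between Abl.2 and Abl.3, beside 18.1% of all 7495 genes tested there, 7 of 26 between Abl.2 and Abl.4, beside 13.8%, and 6 of 18 between Abl.3 and Abl.4, beside 14.6%. With a share difference of at least 0.2 in addition, 9 of 63 were called, 4, 3 and 2 by pair, beside 6.3%, 5.72% and 4.52% of all genes. All 9 changed in the same direction as the switching gene. The direction does not say which allele was used more. Zfp7 had a mean share of 0.692 in Abl.4, where Zfp251 was paternal, and Dynll2 0.586 in Abl.4, where Mks1 was paternal. Pgls had 0.532 in Abl.3, where Slc27a1 was paternal. The shares of the others are given below.

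**Figure D5:**
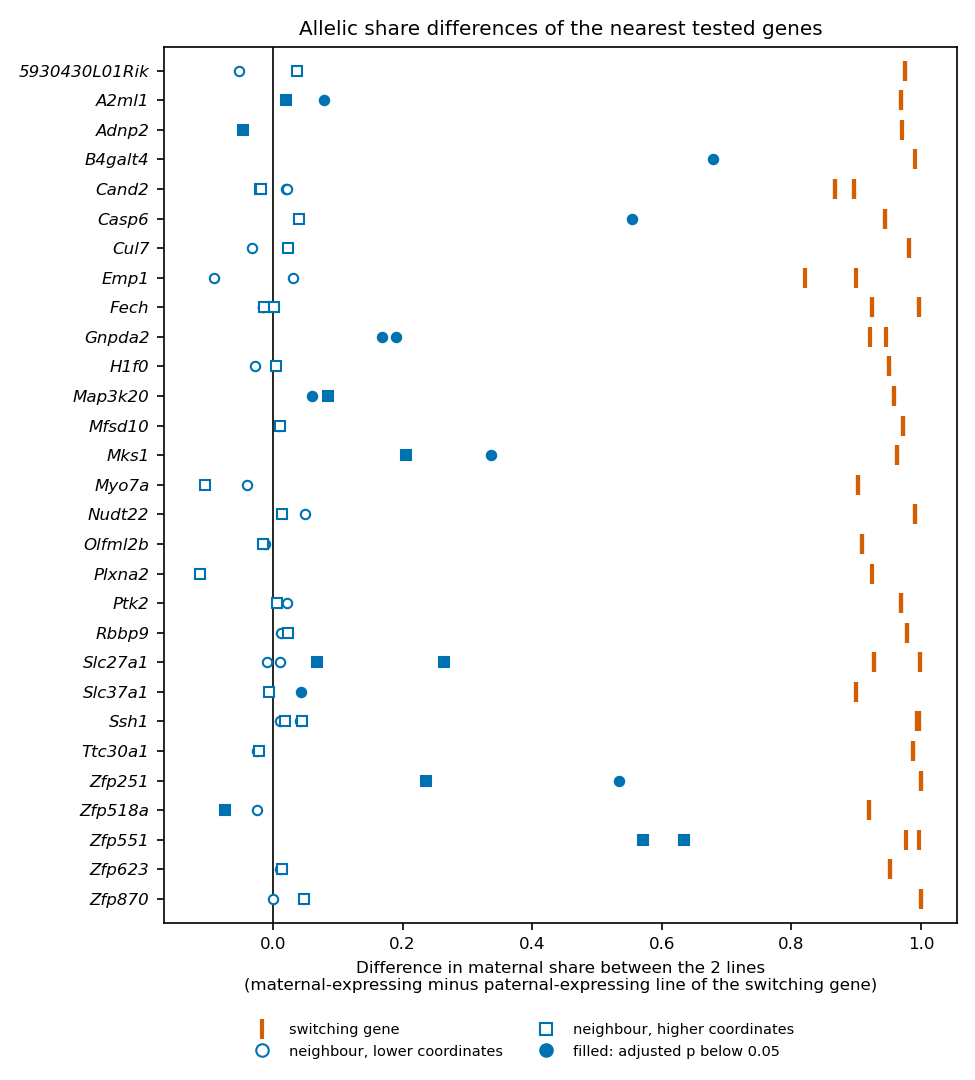
Difference in maternal share on the x axis, maternal-expressing minus paternal-expressing line of the switching gene, for the nearest tested gene at lower (circles) and higher (squares) coordinates of each switching gene (y axis); vertical bars are the switching genes themselves. Filled symbols have an adjusted p below 0.05; most neighbours lie near 0, and 1 neighbour each of B4galt4, Casp6, Zfp251 and Zfp551 lies far to the right of it.

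Some of these neighbours were themselves nearly monoallelic in 1 line of the pair and used both alleles in the other. Arhgap31, 29.0 kb from B4galt4, had shares of 0.0119 and 0.00706 in Abl.2, 0.697 and 0.680 in Abl.3, and 0.421 and 0.387 in Abl.4 (adjusted p = 1.89e-09, edgeR, between Abl.2 and Abl.3). B4galt4 was paternal in Abl.2 as well. Pla2g12a, a secreted phospholipase gene 5.6 kb from Casp6, had shares of 0.0116 and 0 in Abl.2, 0.575 and 0.545 in Abl.3, and 0.427 and 0.387 in Abl.4 (adjusted p = 1.9e-06). Zfp606, 55.5 kb from Zfp551, had shares of 0.00483 and 0.00395 in Abl.2, 0.499 and 0.652 in Abl.3, and 0.622 and 0.657 in Abl.4 (adjusted p = 6.04e-07 against Abl.3 and 4.32e-07 against Abl.4). In these 3 cases both genes were paternal in Abl.2, while in the line where the switching gene was maternal the neighbour used both alleles, at mean shares of 0.560 to 0.688. Arhgap39, 33.4 kb from Zfp251, had shares of 0.983 and 1 in Abl.2, 0.455 and 0.6 in Abl.3, and 0.538 and 0.375 in Abl.4 over as few as 22 counts (adjusted p = 2.92e-04). Tspoap1, 67.3 kb from Mks1, had shares of 0.387 and 0.420 in Abl.2, 0.382 and 0.398 in Abl.3, and 0.0517 and 0.0571 in Abl.4 (adjusted p = 2.11e-08), where Mks1 was paternal too. Zfp7 beside Zfp251, Dynll2 beside Mks1 and Pgls beside Slc27a1 had smaller differences, of 0.236, 0.206 and 0.264.

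At a wider scale, median shares were near equal. For the 26 genes with at least 5 other tested genes within 1 Mb, the median share of those genes was taken in each line, a description added after the neighbour values were seen. All 78 medians lay between 0.438 and 0.602. Plxna2, Fech, Gnpda2 and Casp1 had fewer genes nearby and were left out. A median does not speak for each gene. Arhgap31, Pla2g12a, Zfp606 and Arhgap39 were nearly monoallelic in Abl.2. Zfp799 beside Zfp870 had shares of 0 in every Abl.3 and Abl.4 library and of 0.460 and 0.567 in Abl.2. Zfp870 had shares of 1 and 1 in Abl.3, so these neighbours used opposite alleles there, while in Abl.4 both were paternal. The share of Zfp799 did not change between Abl.3 and Abl.4, the pair tested, so it was not among the called neighbours.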

How the data were processed

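RNA-seq libraries of 3 clones, 2 library preparation replicates each, were made from 10 ng of RNA with SMARTseq v4, per the labels' protocols. The deposited allele table holds whole-number counts per gene for the maternal and paternal allele, taken at SNPs, per the file headers. The authors' abundance table holds TPM, and the authors' imbalance table holds the maternal fraction with confidence limits, per the file headers. The submitters' processing notes name STAR 2.5.4a, SAMtools, GATK and DESeq2 and the builds GRCm38, mm10 and GRCh37, without their roles; coordinates are those of the tables, and 98.0% of 19338 genes had the same start in GENCODE M21 (GRCm38). Which parent was of which strain was not used. Whether a read over several SNPs counted once, and any correction for mapping bias toward one strain's sequence, is not given in the sources used here. TPM hold no depth, so that behind abundance is unknown. Every value column was assigned, and the labels give no batch.

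Shares were computed per library from counts, with 95% Wilson intervals and a floor of 3 counts. Abundance was tested with limma 3.58.1 (eBayes with trend) on log2(TPM + 1), which understates changes of low genes, for the 11003 genes averaging 1 TPM or more; Ttc30a1 fell below it and 5930430L01Rik is not in the table analysed here, so neither was tested. For allelic differences, R 4.3.3 and edgeR 4.0.16 were used (quasi-likelihood; each library had an intercept and each line an allele effect). P-values were adjusted by Benjamini-Hochberg over all genes tested. The scripts were tested on simulated data. The genes, lists and tests were chosen with earlier results of these data known. Library values are given for the 12 genes with the highest smallest-library coverage, Zfp genes and genes biased in all 3 lines; neighbours are named at an adjusted p below 0.05 and a share difference of at least 0.2. Other genes with values were named after they were seen. Alternatives were other coverage and share limits, pseudocounts, filters, normalisation, tools (DESeq2 1.42.0 among them), neighbour distances, a replicate block and leaving out each library.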

Additional observations from a re-analysis of the deposited data

Results flagged for a closer look

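In all, 9 neighbour and pair combinations showed an effect that differed between lines, by the edgeR test of the difference itself with a share difference of at least 0.2. Values are the mean maternal share in the first line minus that in the second. Between Abl.2 and Abl.3, Arhgap31 beside B4galt4 differed by -0.679, Pla2g12a beside Casp6 by -0.554, Zfp606 beside Zfp551 by -0.571 and Pgls beside Slc27a1 by 0.264. Between Abl.2 and Abl.4, Arhgap39 beside Zfp251 differed by 0.535, Zfp7 beside Zfp251 by 0.236 and Zfp606 by -0.635. Between Abl.3 and Abl.4, Tspoap1 and Dynll2 beside Mks1 differed by 0.336 and 0.206. With 2 libraries a line, no single library could be set apart as an outlier.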

How the results depend on the processing

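The rule took 50 genes at share limits of 0.8 and 0.2, with all 30 among them, 24 at 0.95 and 0.05, 36 and 26 at coverage minimums of 10 and 50, and 30 to 34 with each library left out (28 to 30 of them shared with the 30). Leaving out each library gave 10 to 13 genes higher and 1 to 2 lower in the balanced remaining line; the lower count was 1 without either Abl.3 library and after quantile normalisation, where Plxna2 was lost. It gave 6 to 7, 6 to 8 and 4 to 5 calls in the pairs Abl.2 and Abl.3, Abl.2 and Abl.4, and Abl.3 and Abl.4, and 16 to 18 calls among neighbours. Requiring a log2 change of at least 1 left 4 and 3 calls in the pairs Abl.2 and Abl.4, and Abl.3 and Abl.4, and 9 higher and 0 lower in the remaining line. Among neighbours, a share difference of at least 0.2 left 9 of 19. Blocking on replicate number, the pairs gave 7, 8 and 6 calls (Myo7a gained), the remaining line 13 higher and 2 lower, and neighbours 18. Same-numbered libraries had correlations of 0.104, 0.187 and 0.161 in abundance and -0.00622, -0.056 and 0.0151 in share, and the labels give no pairing beyond the number. DESeq2 gave 18 neighbour calls. Over all alternatives, 22 of the values for single genes in pairs and 16 in the remaining line lost the threshold, 9 gained it and no called value changed sign; the cause was not tested. Among uncalled values, Adnp2, Cand2, Casp1, Gnpda2, Mks1, Ssh1 and Zfp551 in 1 pair each, and Zfp623 in the remaining line, changed sign under at least 1 alternative; Zfp551 between Abl.2 and Abl.3 went from -0.27 to a called 0.80 with edgeR on summed allelic counts. Low counts limit the shares of Nudt22, Slc37a1, Ttc30a1 and Cand2.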
